A study of Mus musculus with 4 samples.

Results

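The 6 genes described here encode the mouse receptors for IgG and the chain they signal through: Fcgr1, Fcgr3 and Fcgr4 (activating receptors), Fcer1g (the signalling chain), Fcgr2b (the inhibitory receptor) and Fcgrt (the neonatal receptor FcRn). They were taken by symbol from the 32285 genes of 4 single-cell RNA count matrices, and all 6 were present. The cells were CD45+ (leukocyte) cells sorted from the spinal cord of C57BL/6 mice with experimental autoimmune encephalomyelitis (EAE), an immunisation model of central nervous system inflammation. In the Reg1-MO group, 2 libraries came from mice given Reg1-MOs by the intracranial route on day 9, and in the control group 2 libraries came from mice given Ctrl MO in the same way. All animals had EAE and tissue was taken on day 16. MO is read as morpholino, an antisense oligomer, and Reg1 as the RNase Regnase-1 (gene Zc3h12a); the labels spell out neither, nor the age, sex or number of mice behind a library.

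IgG bound to a target is read by cells through Fc gamma receptors. FcγRI (Fcgr1) binds monomeric IgG with high affinity, whereas FcγRIII (Fcgr3) and FcγRIV (Fcgr4) bind mainly immune complexes. All of these pair with the FcRγ chain (Fcer1g), whose ITAM motif recruits the kinase Syk and starts phagocytosis, the oxidative burst and cytokine release. FcγRIIb (Fcgr2b) carries an ITIM motif that recruits the phosphatase SHIP-1 and restrains the same signals, so cells are often described by the balance of activating to inhibitory receptors. FcRn (Fcgrt) pairs with β2-microglobulin inside the cell and returns IgG from endosomes to the surface. In mice, NK cells are known for FcγRIII, B cells for FcγRIIb, neutrophils for FcγRIII and FcγRIV, and macrophages and microglia for the whole set.

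Of the 6 genes, 4 lie within 276 kb of mouse chromosome 1 (GRCm38, GENCODE M21): Fcgr2b (ENSMUSG00000026656) at chr1:170958617-170976547 on the minus strand, Fcgr4 (ENSMUSG00000059089) at chr1:171018920-171029761 on the plus strand, Fcgr3 (ENSMUSG00000059498) at chr1:171051174-171064935 on the minus strand and Fcer1g (ENSMUSG00000058715) at chr1:171229572-171234365 on the minus strand. Fcgr1 (ENSMUSG00000015947) lies apart, at chr3:96282909-96293969 on the minus strand, and Fcgrt (ENSMUSG00000003420) at chr7:45092990-45103851 on the minus strand. All are annotated as protein coding. Fcgr2b, Fcgr3 and Fcgr4 are related in sequence, so reads shared between them could be assigned to the wrong gene or dropped in the authors' counting.

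The 250 bases before the start of the 4 receptor genes are shown because the receptors differed in how their transcripts followed cell type and library. They are RefSeq sequence on GRCm38.p6, 5′ to 3′ on the strand of the gene, and capitals mark matches to any of the motifs TTCNNNGAA (the interferon-γ activated site type), the interferon-stimulated response element type (GAAA and GAAA with 2 bases between) and GAGGAA (a PU.1 core, printed as TTCCTC where it lies on the other strand), each searched on both strands. The RefSeq starts of Fcgr2b, Fcgr3 and Fcgr4 lie inside the GENCODE genes, and Fcgr3 has a pair of them, of which the upstream one is shown.
Fcgr1, chr3:96293970-96294219, minus strand: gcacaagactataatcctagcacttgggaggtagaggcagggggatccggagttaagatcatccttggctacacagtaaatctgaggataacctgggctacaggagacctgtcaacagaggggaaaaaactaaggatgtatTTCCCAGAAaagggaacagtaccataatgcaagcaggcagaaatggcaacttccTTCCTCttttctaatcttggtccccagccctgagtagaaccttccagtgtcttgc
Fcgr4, chr1:171018676-171018925, plus strand: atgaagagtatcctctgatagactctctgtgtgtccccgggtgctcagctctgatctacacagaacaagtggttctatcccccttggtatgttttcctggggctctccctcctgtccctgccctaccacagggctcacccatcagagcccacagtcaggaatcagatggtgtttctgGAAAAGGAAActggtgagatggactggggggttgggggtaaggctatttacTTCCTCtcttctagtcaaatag
Fcgr3, chr1:171059404-171059653, minus strand: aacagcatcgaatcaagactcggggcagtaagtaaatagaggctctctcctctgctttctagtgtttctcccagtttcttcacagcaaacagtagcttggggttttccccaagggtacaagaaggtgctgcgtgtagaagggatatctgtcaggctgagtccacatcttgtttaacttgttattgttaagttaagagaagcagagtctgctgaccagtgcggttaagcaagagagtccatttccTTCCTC
Fcgr2b, chr1:170976072-170976321, minus strand: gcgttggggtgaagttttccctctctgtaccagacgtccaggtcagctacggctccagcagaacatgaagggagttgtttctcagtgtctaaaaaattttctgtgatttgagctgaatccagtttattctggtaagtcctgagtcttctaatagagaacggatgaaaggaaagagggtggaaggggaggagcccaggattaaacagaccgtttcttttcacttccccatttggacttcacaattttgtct
The Fcgr1 window holds TTCCCAGAA, 100 bases before the start, and 1 PU.1 core. The Fcgr4 window holds GAAAAGGAAA, 63 bases before the start, and 1 PU.1 core, and the Fcgr3 window holds 1 PU.1 core next to the start. None of the 3 motifs was found in the windows of Fcgr2b, Fcer1g or Fcgrt. Over the 32851 windows of this length in the RefSeq table, 7.02% held the first motif, 2.98% the interferon-stimulated response element type and 23.2% GAGGAA. A match of letters is not a bound site, and no overlap between the capitalised matches occurred in these windows.

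The libraries held 9103 and 5256 barcodes in the Reg1-MO group and 8255 and 6765 in the control group, with 75472324 to 174552218 UMIs (counted RNA molecules) each, and 8080 and 4953 Reg1-MO and 7547 and 6273 control cells were used. Between 10 and 78 barcodes were shared by any pair of libraries, at most 0.945% of the smaller one. Cells were clustered without the 6 genes and named from marker lists, with the suffix "-like" because names rest on transcripts alone; 22 of 28 clusters were named. All 12 microglia markers were detected in microglia-like cells of every library, and they summed to 5536 and 10125 CPM (Reg1-MO) and 3987 and 7149 CPM (control), where CPM is UMIs per 1000000 UMIs of the class. In macrophage-like cells they summed to 734 and 571 CPM (Reg1-MO) and 676 and 532 CPM (control). Microglia-like cells came from clusters whose mix differed between replicates of a group. Cluster 13, with a median of 58920 UMIs per cell, gave 86.3% and 38.5% of the UMIs of the class in the Reg1-MO libraries and 86.1% and 8.77% in the controls, and cluster 14 gave most of the rest. Whether cluster 13 holds doublets was not tested beyond the removal of cells with high doublet scores. Zc3h12a transcripts measured 58.5 and 77.7 CPM in microglia-like cells of the Reg1-MO libraries and 63.1 and 141 CPM in controls, and a morpholino need not lower the transcript it binds.

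**Figure D1:**
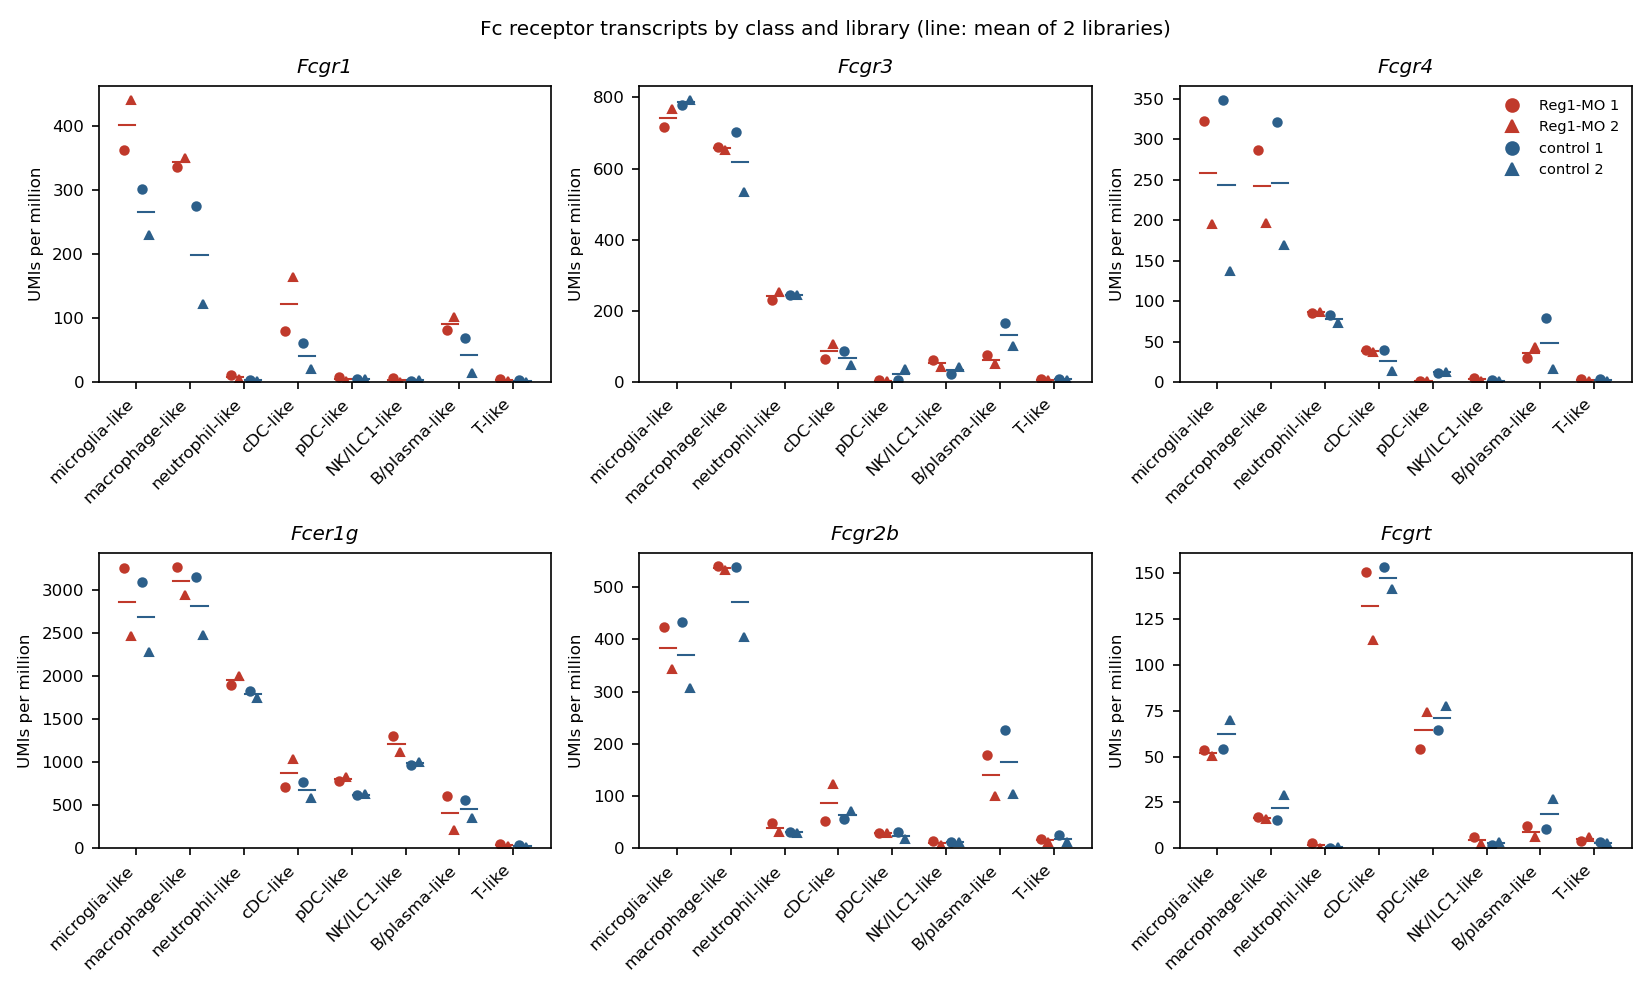
Levels of the 6 genes in 8 classes, as UMIs of the gene per 1000000 UMIs of the class (linear axis from 0), 1 point per library with the mean of each group as a line; Reg1-MO libraries are red and left, controls blue and right. Fcgr3 ranges from 533 to 793 in microglia-like and macrophage-like cells and from 4.69 to 8.84 in T-like cells, and Fcgrt is highest in conventional dendritic cell (cDC)-like cells, at 114 to 153.

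The levels by class describe which cells carried which receptor. They are given in CPM as mean ± SD over the 4 libraries of both groups (n = 4). T-like cells, which are not known for activating Fc receptors, serve as the level that free RNA can give. For Fcgr2b that use is less secure. It had 17.6 to 34.9 CPM in T-like cluster 6 and 1.61 to 9.76 CPM in T-like cluster 25. Because names and levels come from the same cells, no test between classes was made.

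Fcgr1 transcripts were carried by mononuclear phagocytes. The level was 334 ± 89.6 CPM in microglia-like and 271 ± 105 CPM in macrophage-like cells, whose ranges overlapped. It was 81.5 ± 60.1 CPM in cDC-like cells and 2.10 ± 1.57 CPM in T-like cells. Neutrophil-like cells had 5.02 ± 3.84 CPM, a range that overlapped that of the T-like cells, so Fcgr1 is not read as expressed there. B/plasma cell-like cells had 66.1 ± 37.5 CPM, yet at 2000 UMIs per cell only 2.50% and 3.45% (Reg1-MO) and 3.66% and 1.33% (control) of them held an Fcgr1 UMI. In T-like cells the share was at most 0.923% in each library. Without thinning, the shares were 6.98% and 3.45% (Reg1-MO) and 7.06% and 3.85% (control) in B/plasma cell-like cells, at median depths of 4243.5 to 6481 UMIs, and 0.233% to 2.69% in T-like cells, at 6598 to 6974 UMIs.

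Fcgr3 was the most even of the activating receptors. It measured 764 ± 32.6 CPM in microglia-like cells and 638 ± 73.1 CPM in macrophage-like cells, and these ranges did not overlap. Single clusters of these classes did. Microglia-like clusters 13 and 22 had 698 to 759 and 562 to 643 CPM, and macrophage-like cluster 4 had 556 to 789 CPM. Neutrophil-like cells had 243 ± 9.06 CPM, with the 4 libraries between 231 and 253 CPM. NK/ILC1-like cells had 42.9 ± 15.96 CPM, against 6.97 ± 1.88 CPM in T-like cells. In NK/ILC1-like cells Fcgr1 and Fcgr4 were at 2.67 ± 2.52 and 2.54 ± 1.99 CPM, close to their T-like levels of 2.10 ± 1.57 and 2.44 ± 1.61 CPM, so Fcgr3 was the activating receptor detected above that level in this class.

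Fcgr4 was found in the same phagocytes and in neutrophils. Microglia-like cells had 251 ± 101.1 CPM, macrophage-like cells 244 ± 72.4 CPM and neutrophil-like cells 82.0 ± 6.45 CPM. The first 2 ranges overlapped and the neutrophil range lay below them. In cDC-like cells the level was 32.3 ± 12.8 CPM.

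Fcer1g, the chain that these receptors need at the surface, was the most widely spread member. It reached 2964 ± 349 CPM in macrophage-like, 2778 ± 474 in microglia-like and 1869.8 ± 110.3 in neutrophil-like cells. NK/ILC1-like cells had 1101 ± 153 CPM and plasmacytoid dendritic cell (pDC)-like cells 717 ± 107 CPM, where Fcgr1, Fcgr3 and Fcgr4 averaged 4.56 ± 2.54, 12.98 ± 16.4 and 6.65 ± 5.94 CPM. FcRγ also serves other receptors, so its transcript does not mark Fc gamma receptor expression by itself. T-like cells had 36.0 ± 13.5 CPM.

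Fcgr2b, the inhibitory receptor, followed another order. Macrophage-like cells had 504 ± 66.4 CPM and microglia-like cells 377 ± 62.1 CPM, the reverse of the order of Fcgr3, with ranges that overlapped. B/plasma cell-like cells had 153 ± 61.3 CPM, and 32.5% and 13.8% of them (Reg1-MO) and 18.3% and 12.0% (control) held an Fcgr2b UMI at 2000 UMIs per cell. In T-like cells these shares were 3.85% and 2.34% (Reg1-MO) and 5.37% and 1.80% (control). Unthinned shares were 51.2% and 24.1% (Reg1-MO) and 34.1% and 24.4% (control) in B/plasma cell-like cells and 7.22% to 13.5% in T-like cells. Neutrophil-like cells had 34.9 ± 8.80 CPM, above the T-like range of 12.3 to 25.6 CPM, and NK/ILC1-like cells had 11.6 ± 3.48 CPM, which overlapped it. In the 32 mast/basophil-like cells of control 2, the only library with at least 20 such cells, Fcgr2b had 196 CPM and Fcgr3 367 CPM, while Fcgr1 had no UMI.

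Fcgrt was the one member whose highest level was not in microglia-like or macrophage-like cells. cDC-like cells had 139.7 ± 18.1 CPM and pDC-like cells 67.5 ± 10.4 CPM, followed by microglia-like cells at 57.0 ± 8.87 CPM, which overlapped the pDC-like range. Macrophage-like cells had 19.4 ± 6.51 CPM and did not overlap microglia-like cells. Neutrophil-like cells had 1.12 ± 1.30 CPM.

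Shares of cells with a UMI were compared after each cell was thinned to 2000 UMIs, since median depth ran from 4738.5 UMIs in neutrophil-like cells of Reg1-MO 1 to 43682.5 in microglia-like cells of control 1. Fcgr2b together with at least 1 activating receptor was seen in 53.5% and 51.4% of macrophage-like cells of the Reg1-MO libraries and in 51.1% and 36.0% of those of the controls. In microglia-like cells these shares were 50.2% and 42.6% (Reg1-MO) and 51.5% and 37.1% (control). In neutrophil-like cells 55.0% and 51.5% (Reg1-MO) and 52.6% and 50.8% (control) held an activating receptor UMI, but only 4.07% and 1.83% (Reg1-MO) and 1.75% and 1.98% (control) held one together with Fcgr2b. In T-like cells the joint share was at most 0.262% in each library. Unthinned joint shares were 85.7% to 94.2% in macrophage-like, 92.1% to 98.1% in microglia-like, 14.2% to 16.5% in neutrophil-like and 0.466% to 1.51% in T-like cells. Most macrophage-like and microglia-like cells with an Fcgr2b UMI thus also held an activating one. Unthinned, so did most such neutrophil-like cells: Fcgr2b alone or jointly was seen in 17.9% and 16.5% (Reg1-MO) and 18.5% and 16.6% (control). At 2000 UMIs Fcgr2b was seen in 5.69% and 4.34% (Reg1-MO) and 4.61% and 4.20% (control) of them. The classes thus differed in how many cells held Fcgr2b. Whether joint shares exceed those of separate detection was not tested.

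Within classes the receptors separated clusters, and each cluster is named here by its leading genes. Among macrophage-like cells, cluster 2, led by Cxcl10 and Cxcl9 (interferon-induced chemokines), and cluster 17, led by Ms4a7 and Spp1, had the most Fcgr1. Cluster 2 had 464 and 498 CPM in the Reg1-MO libraries and 424 CPM in control 1, and cluster 17 had 432 and 551 CPM (Reg1-MO) and 397 CPM in control 1; control 2 had only 8 and 9 cells there. Cluster 3, led by Slc7a2, Ly6i and Nos2, had 304 and 297 CPM (Reg1-MO) and 284 and 159 CPM (control), and cluster 4, led by Gpnmb and Saa3, 295 and 260.0 CPM (Reg1-MO) and 278 and 135 CPM (control). Cluster 16, led by Vcan, a gene of recruited monocytes, stood lowest with 107 and 181 CPM (Reg1-MO) and 60.4 and 33.5 CPM (control).

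The Vcan-led cluster 16 was also low in the other 3 receptors. Fcgr2b had 158 and 197 CPM (Reg1-MO) and 133 and 100.5 CPM (control) there, against 464.6 to 593 CPM in the libraries of clusters 3 and 4. Fcgr4 had 61.8 and 58.9 CPM (Reg1-MO) and 82.6 and 81.8 CPM (control), against 162 to 354 CPM in clusters 3 and 4. Fcgr3 had 386 and 408 CPM (Reg1-MO) and 410.2 and 413 CPM (control); the libraries of clusters 3 and 4 had 556 to 789 CPM.

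Neutrophil-like clusters differed as well. Cluster 8, led by Stfa2l1 and Cxcr2, a gene of mature neutrophils, had 358 and 409 CPM of Fcgr3 in Reg1-MO libraries and 399 and 386 CPM in controls, and cluster 11, led by Fcnb and Camp, granule genes of immature neutrophils, had 104 and 93.3 CPM (Reg1-MO) and 111 and 124 CPM (control). Fcgr4 gave the same order, at 136 and 136 CPM (Reg1-MO) and 162 and 133 CPM (control) in cluster 8 and 38.3 and 26.4 CPM (Reg1-MO) and 30.9 and 29.1 CPM (control) in cluster 11. Fcgr2b ran the other way, at 20.3 and 10.9 CPM (Reg1-MO) and 20.1 and 16.8 CPM (control) in cluster 8 and 68.2 and 50.04 CPM (Reg1-MO) and 48.9 and 49.8 CPM (control) in cluster 11. The unnamed cluster 10, led by Acod1, in which all 13 neutrophil markers were detected, had the highest Fcgr4 of the clusters plotted, at 477 and 298 CPM (Reg1-MO) and 510.3 and 274 CPM (control).

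**Figure D2:**
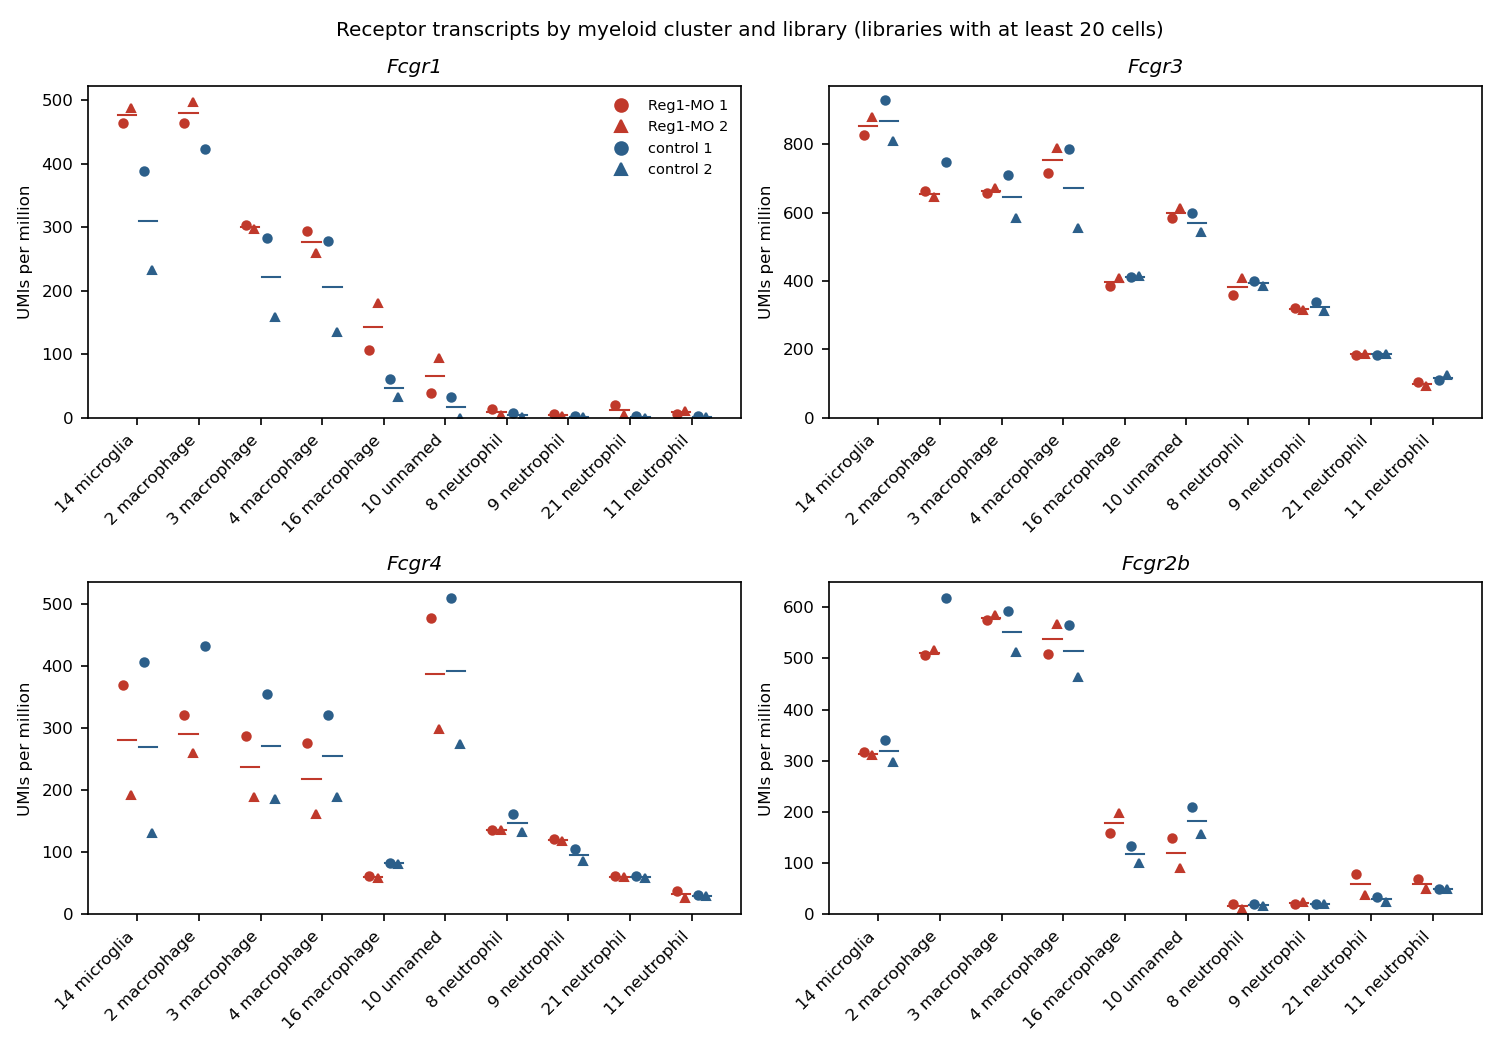
Fcgr1, Fcgr3, Fcgr4 and Fcgr2b in microglia-like cluster 14, 4 macrophage-like clusters, unnamed cluster 10 and 4 neutrophil-like clusters, in CPM of the cluster (linear axes from 0), 1 point per library with at least 20 cells and the group mean as a line, Reg1-MO red and left, control blue and right. Fcgr4 reaches 477 and 510.3 in cluster 10 of the libraries numbered 1, and Fcgr2b stays at or under 23.3 in neutrophil-like clusters 8 and 9.

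The comparison of Reg1-MO with control asked whether the morpholino changed receptor transcripts within a class. In the main fit, without a replicate block, no member passed edgeR's quasi-likelihood test at an adjusted p under 0.05 in any class. The test ran over all genes that passed the filter on low counts. Some alternative fits, given below, did call Fcgr1 in neutrophil-like cells, where it was near its T-like level. Fcgr1 was the member that moved most: each Reg1-MO library lay above each control in microglia-like, macrophage-like, neutrophil-like and cDC-like cells, without passing. Fcgr3, Fcgr2b and Fcer1g differed between groups by at most 0.40 on the log2 scale in microglia-like, macrophage-like and neutrophil-like cells. Nothing in the labels says that the 2 libraries of a group came from separate animals, so p-values measure the spread between these libraries.

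In macrophage-like cells Fcgr1 had 336 and 350.4 CPM in the Reg1-MO libraries, against 275 and 122 CPM in the controls. The Reg1-MO libraries were close to each other and the controls far apart. The log2 fold change was 0.83 ± 0.40 (SE; adjusted p = 0.346). Of the 6 members 1 had groups that did not overlap with Reg1-MO higher, where 23.7% of the 13335 genes tested did so. The edgeR test called 0 genes (0%) in this class, although 2417 had an unadjusted p under 0.05, and 560 passed by DESeq2. The value turns on control 2: without control 1 the log2 fold change was 1.54 and without control 2 it was 0.36. Each of these fits leaves 1 control library, so the spread between controls cannot be measured in them.

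The mix of clusters within macrophage-like cells differed between libraries beside this result. The Cxcl10-led cluster 2 gave 18.2% and 27.2% of the class UMIs in the Reg1-MO libraries and 7.63% and 0.480% in the controls, and the Vcan-led cluster 16 gave 2.40% and 8.00% (Reg1-MO) and 10.2% and 18.5% (control). Cluster 2 was among the clusters with most Fcgr1 and cluster 16 had the least of the class. Within single clusters, an analysis added after the data were seen, the log2 fold change of Fcgr1 was 0.46 ± 0.27 in cluster 3 (adjusted p = 0.566), 0.44 ± 0.33 in cluster 4 (adjusted p = 0.731) and 1.61 ± 0.43 in cluster 16 (adjusted p = 0.157) by edgeR. The groups did not overlap in clusters 3 and 16, where 20.8% and 28.5% of genes had higher, not overlapping values, and overlapped in cluster 4. Neutrophil marker transcripts within macrophage-like cells, all 13 detected, summed to 1363 and 2749 CPM (Reg1-MO) and 4206 and 4634 CPM (control), and their part in the result was not tested.

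In microglia-like cells Fcgr1 had 363 and 440.4 CPM in the Reg1-MO libraries, against 301 and 230.2 CPM in the controls. The groups did not overlap. The log2 fold change was 0.57 ± 0.29 (adjusted p = 0.988 by edgeR). Over all 13874 genes 18.2% were higher without overlap and 13.3% lower without overlap, and 1 member (Fcgr1) fell in the first and 2 members (Fcgr3 and Fcgrt) in the second set. The test called 0 genes (0%), although 344 had an unadjusted p under 0.05, and 5 passed by DESeq2. In cluster 14 alone, led by Sparc and Nav3, Fcgr1 had 465 and 488 CPM (Reg1-MO) and 388 and 232 CPM (control). The log2 fold change was 0.63 ± 0.30 (adjusted p = 0.575 by edgeR). There 20.5% of genes were higher without overlap and 0 (0%) were called, 1020 at an unadjusted p under 0.05. With finer clusters (Leiden resolution 2), control 2 had 476 cells in a microglia-like cluster led by Slc1a3 and Pmp22. The Reg1-MO libraries had 19 and 18 cells there, and control 1 had 21. A cluster led by Nav3 and Csmd3 held 338 and 718 cells (Reg1-MO) and 157 and 28 (control). Whether this bears on the Fcgr1 value of control 2 was not tested. Neutrophil markers within microglia-like cells, all 13 detected, summed to 2052 and 10370 CPM in the Reg1-MO libraries and 18798 and 2935 CPM in the controls. That sum overlaps between the groups.

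Among cDC-like cells Fcgr1 had 79.9 and 164 CPM (Reg1-MO) and 61.3 and 20.9 CPM (control), with a log2 fold change of 1.53 ± 0.55 (adjusted p = 0.358 by edgeR). The groups did not overlap, as for 21.6% of the 9562 genes with Reg1-MO higher, and 0 genes (0%) were called, 1264 at an unadjusted p under 0.05 and 84 by DESeq2. The class had 346 and 145 cells in the Reg1-MO libraries and 104 and 53 in the controls. In neutrophil-like cells Fcgr1 had 10.3 and 5.18 CPM (Reg1-MO) and 3.36 and 1.28 CPM (control), with a log2 fold change of 1.73 ± 0.51 (adjusted p = 0.209 by edgeR). These levels are near those of T-like cells, which had 4.06 and 1.56 CPM (Reg1-MO) and 2.46 and 0.319 CPM (control). With doublets removed at the doubled rate the log2 fold change in neutrophil-like cells was 1.02, and without control 1 it was 2.60. Without the filter on low counts it was 1.69 and passed (adjusted p = 0.00026). It also passed with the replicate block, although the library numbers are not known to pair the libraries. Both fits called many more genes in this class than the 31 (0.292%) of the main fit, as counted in the closing section on processing. Passing there was thus not particular to Fcgr1.

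The difference of Fcgr1 between groups was not shown to differ between the macrophage kinds. In a test of the interaction with the library as a block, the log2 fold change in macrophage-like minus microglia-like cells was 0.35 ± 0.32 for Fcgr1 (adjusted p = 0.986 by edgeR), and 0 of 14296 genes (0%) were called. The interaction of the other 5 members lay between -0.12 and 0.23. With all cells of a library summed, Fcgr1 had 273 and 265 CPM (Reg1-MO) and 180.3 and 80.8 CPM (control), and the log2 fold change was 0.96 ± 0.39 (adjusted p = 0.307 by edgeR). Fcgr1 and Fcgrt were the 2 of the 6 members higher without overlap in that sum, where 34.1% of 16780 genes were and 0 (0%) were called, 2879 at an unadjusted p under 0.05 and 1029 by DESeq2. Shares of the classes differ between the libraries, so this sum mixes class size and level.

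In microglia-like and macrophage-like cells the other activating receptors differed less between groups than Fcgr1. In microglia-like cells Fcgr3 had 718 and 767 CPM in the Reg1-MO libraries and 779 and 793 CPM in the controls, lower without overlap but by a log2 fold change of only -0.10 ± 0.25 (adjusted p = 0.993). In macrophage-like cells it had 660.4 and 653 CPM (Reg1-MO) and 704 and 533 CPM (control), which overlap. In neutrophil-like cells the values were 231 and 253 CPM (Reg1-MO) and 243 and 243 CPM (control), a difference within the spread of the Reg1-MO libraries. The cDC-like cells had log2 fold changes of 0.33 ± 0.36 for Fcgr3 (adjusted p = 0.735) and 0.52 ± 0.43 for Fcgr4 (adjusted p = 0.633) by edgeR. Both had the direction of Fcgr1, with groups that overlapped.

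Fcgr4 varied with the library number rather than with the group. Microglia-like cells had 323 and 195 CPM (Reg1-MO) and 349 and 137 CPM (control), and macrophage-like cells 287 and 197 CPM (Reg1-MO) and 322 and 169 CPM (control). In both classes the library numbered 1 of each group was high and the library numbered 2 low. This Fcgr4 order also held in cluster 10 and in clusters 3, 4 and 14. It was not particular to Fcgr4, since Fcer1g and Fcgr2b had it in both classes. Fcer1g had 3260 and 2465 CPM (Reg1-MO) and 3098 and 2287 CPM (control) in microglia-like cells. Cluster 13 gave 86.3% and 86.1% of microglia-like UMIs in the libraries numbered 1, and 38.5% and 8.77% in those numbered 2. How many of all genes had this order was not counted. The libraries numbered 1 held more barcodes and UMIs. Median UMIs per macrophage-like cell were 14297 and 14019 (Reg1-MO) and 17202 and 17509.5 (control). Per microglia-like cell they were 42342 and 17036 (Reg1-MO) and 43682.5 and 13704.5 (control), which follows the library number. The part of depth in the Fcgr4 order was not tested. After thinning to 2000 UMIs, 36.8% and 29.7% of macrophage-like cells of the Reg1-MO libraries and 41.3% and 24.8% of those of the controls held an Fcgr4 UMI, the same order. In T-like cells that share was 1.03% and 0.111% (Reg1-MO) and 0.851% and 0.360% (control). Unthinned, it was 86.0% and 74.5% (Reg1-MO) and 85.7% and 72.4% (control) in macrophage-like cells. The log2 fold change was 0.07 ± 0.59 in microglia-like (adjusted p = 0.999) and 0.02 ± 0.37 in macrophage-like cells (adjusted p = 0.978) by edgeR. In neutrophil-like cells Fcgr4 had 85.5 and 86.9 CPM (Reg1-MO) and 82.9 and 72.7 CPM (control), 0.24 ± 0.14 on the log2 scale (adjusted p = 0.529).

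The signalling chain and the inhibitory receptor passed the test in none of the classes. Fcer1g had 3275 and 2944 CPM (Reg1-MO) and 3156 and 2483 CPM (control) in macrophage-like cells, a log2 fold change of 0.18 ± 0.18 (adjusted p = 0.586 by edgeR). In neutrophil-like cells it had 1897 and 2006 CPM (Reg1-MO) and 1833 and 1743 CPM (control), 0.22 ± 0.17 on the log2 scale (adjusted p = 0.655). Fcgr1, Fcgr4 and Fcer1g were the 3 of 5 members tested in neutrophil-like cells that were higher without overlap, against 14.1% of the 10608 genes, of which edgeR called 31 (0.292%). Fcgr2b had 539.7 and 532 CPM (Reg1-MO) and 539 and 404 CPM (control) in macrophage-like cells, 0.22 ± 0.18 (adjusted p = 0.500), and 425 and 343 CPM (Reg1-MO) and 434 and 307 CPM (control) in microglia-like cells, 0.03 ± 0.34 (adjusted p = 0.999). Both sets of groups overlap. In neutrophil-like cells Fcgr2b had 47.9 and 30.5 CPM (Reg1-MO) and 32.3 and 28.8 CPM (control), 0.40 ± 0.18 (adjusted p = 0.404), and in cDC-like cells 52.8 and 123 CPM (Reg1-MO) and 56.1 and 72.4 CPM (control), 0.48 ± 0.43 (adjusted p = 0.669), with overlap in both.

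Fcgrt, the FcRn gene, had 53.6 and 50.5 CPM (Reg1-MO) and 53.9 and 70.1 CPM (control) in microglia-like cells, lower without overlap by a log2 fold change of -0.26 ± 0.21 (adjusted p = 0.988 by edgeR). In macrophage-like cells it had 17.1 and 16.2 CPM (Reg1-MO) and 15.3 and 29.1 CPM (control), where control 2 alone stood high, -0.37 ± 0.33 (adjusted p = 0.559). Without control 1 that change was -0.76, and without control 2 it was 0.17. In cDC-like cells, where Fcgrt is highest, it had 150.4 and 114 CPM (Reg1-MO) and 153 and 141 CPM (control), which overlap, and in neutrophil-like cells it did not pass the filter on low counts.

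**Figure D3:**
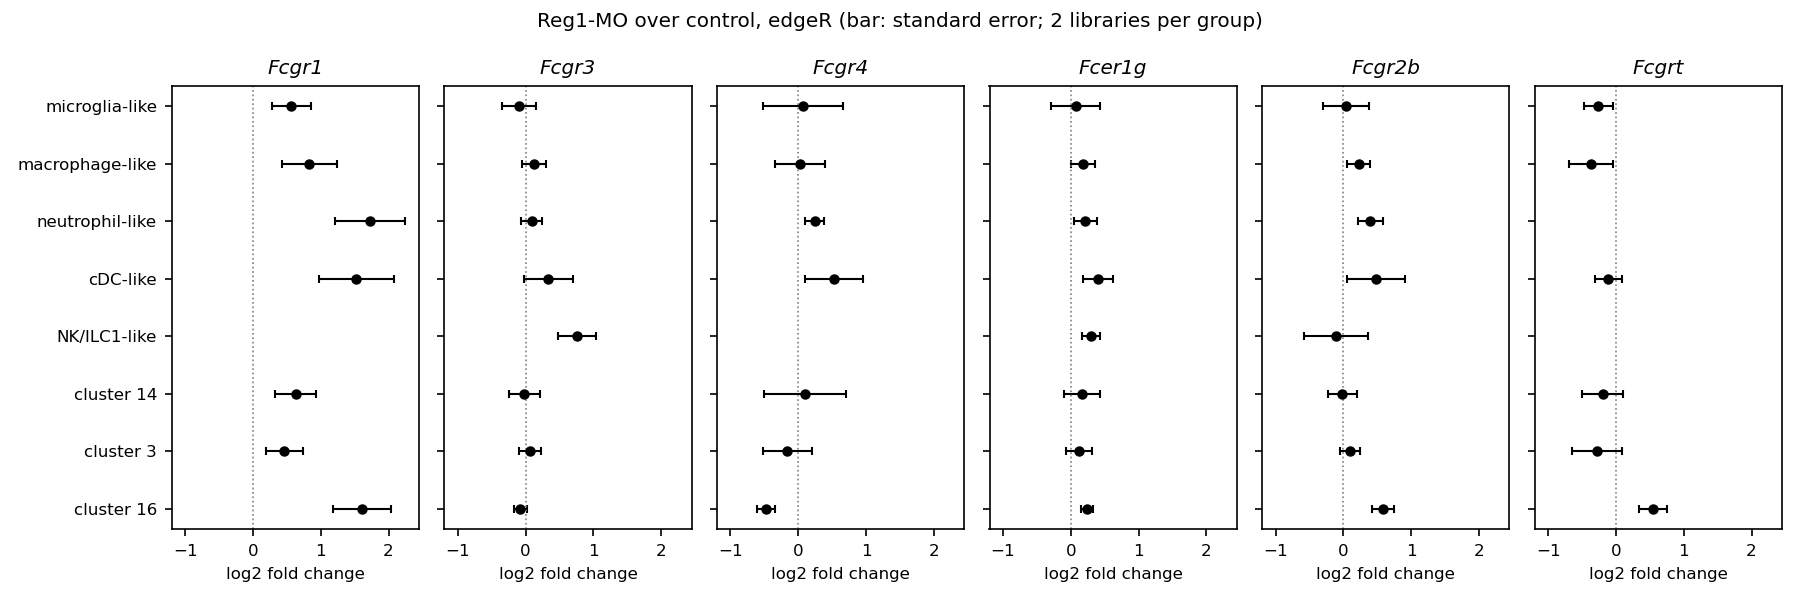
Log2 fold change of Reg1-MO over control for the 6 members in 5 classes and 3 single clusters, from edgeR, with standard errors as bars and 0 as a dotted line (linear axes; a missing point did not pass the filter on low counts). Fcgr1 is above 0 wherever it is drawn, from 0.46 in cluster 3 to 1.73 in neutrophil-like cells, and none of the points passed the test.

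In NK/ILC1-like cells Fcgr3 had 62.5 and 43.3 CPM in the Reg1-MO libraries and 23.4 and 42.5 CPM in the controls, with a log2 fold change of 0.76 ± 0.28 (adjusted p = 0.222 by edgeR). Reg1-MO 2 and control 2 were nearly equal. These CPM rest on 103 and 33 Fcgr3 UMIs (Reg1-MO) and 22 and 34 UMIs (control). Fcer1g had 1309 and 1119.9 CPM (Reg1-MO) and 971 and 1004 CPM (control), 0.30 ± 0.13 on the log2 scale (adjusted p = 0.315). Of the 3 members tested, these 2 were higher without overlap, where 21.4% of the 7770 genes were, and edgeR called 86 genes (1.11%) in this class and no member. NK/ILC1 markers, all 11 detected, summed to 7380 and 7452 CPM (Reg1-MO) and 6415 and 6776 CPM (control). In T-like cells, where 0 of 11772 genes (0%) were called, with 1620 at an unadjusted p under 0.05, Fcgrt was the 1 of 6 members higher without overlap, against 25.7% of genes, at 4.06 and 6.40 CPM (Reg1-MO) and 3.56 and 2.71 CPM (control).

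The Vcan-led cluster 16 came closest to a call. Taken alone after the data were seen, it gave 629 called genes of 9584 (6.56%) by edgeR, none of them a member. Fcgr4 was lower, with a log2 fold change of -0.47 ± 0.13 (adjusted p = 0.0548), and Fcgr2b higher, at 0.58 ± 0.16 (adjusted p = 0.0564). Fcgr1, Fcer1g and Fcgrt were also higher without overlap, so that 4 of 6 members were higher and 2 lower without overlap, where 28.5% of genes were higher and 25.3% lower. Fcer1g had 2687 and 2708 CPM (Reg1-MO) and 2405 and 2074 CPM (control) there, 0.24 ± 0.09 on the log2 scale (adjusted p = 0.133). The cluster held 105 and 129 cells in the Reg1-MO libraries and 384 and 417 in the controls.

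Other single clusters gave no called member by edgeR either. Clusters 3 and 4 had 0 (0%) and 7 (0.0612%) called genes over all genes, with 1290 at an unadjusted p under 0.05 in cluster 3. Neutrophil-like clusters 8, 9 and 21 had 33 (0.467%), 89 (1.2%) and 129 (1.75%). Members higher without overlap numbered 1 of 5 tested in cluster 8 (13.8% of genes), 3 of 4 in cluster 9 (13.8% of genes) and 3 of 5 in cluster 21 (16.8% of genes). Fcer1g was among them in all 3 clusters. In cluster 9 Fcgr4 had 122 and 118 CPM (Reg1-MO) and 105 and 86.6 CPM (control), 0.43 ± 0.17 on the log2 scale (adjusted p = 0.299). In cluster 21 Fcgr2b had 79.4 and 38.6 CPM (Reg1-MO) and 33.9 and 24.5 CPM (control), higher without overlap by 0.88 ± 0.28 (adjusted p = 0.176).

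The balance of activating to inhibitory transcripts was taken as the summed UMIs of Fcgr1, Fcgr3 and Fcgr4 over those of Fcgr2b in a library. It is a ratio of 3′ tag counts and is compared between libraries and clusters, not read as a ratio of receptor molecules. In macrophage-like cells it was 2.38 and 2.26 in the Reg1-MO libraries and 2.41 and 2.04 in the controls, and in microglia-like cells 3.31 and 4.09 (Reg1-MO) and 3.29 and 3.78 (control). The groups overlapped in both. Two-sided exact permutation tests gave p = 1.0 and p = 0.667, and with 2 against 2 libraries the smallest possible p is 0.333. Neutrophil-like cells had 6.83 and 11.3 (Reg1-MO) and 10.2 and 11.03 (control), and cDC-like cells 3.498 and 2.503 (Reg1-MO) and 3.37 and 1.12 (control), which overlap too (exact permutation p = 1.0 and 0.667).

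The balance differed more between clusters than between groups. It ran from 1.82 to 2.27 over the libraries of macrophage-like cluster 3 to 25.0 to 50.6 over those of neutrophil-like cluster 8. In cluster 8 Fcgr2b had only 10.9 to 20.3 CPM, and in cluster 9 19.9 to 23.3 CPM. The T-like range was 12.3 to 25.6 CPM, so the high ratios of these 2 clusters rest on a denominator near that level and are not precise. Over the neutrophil-like clusters the balance was lowest in the Fcnb-led cluster 11, at 2.18 and 2.61 (Reg1-MO) and 2.95 and 3.11 (control), lower in Reg1-MO without overlap. The Vcan-led cluster 16 had 3.52 and 3.28 (Reg1-MO) and 4.14 and 5.26 (control), lower in Reg1-MO without overlap, and without Fcgr1 in the sum it had 2.84 and 2.37 (Reg1-MO) and 3.69 and 4.93 (control). Cluster 21, led by Ltf, was lower without overlap as well, at 3.35 and 6.52 (Reg1-MO) and 7.33 and 10.0 (control), while the Acod1-led cluster 10 was higher, at 7.34 and 11.1 (Reg1-MO) and 5.45 and 5.23 (control). Each of these 4 had an exact permutation p of 0.333, the smallest that 2 against 2 libraries allow, out of the 9 myeloid clusters (cluster 10 included) for which the ratio was tested; an adjusted p under 0.05 cannot be reached.

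**Figure D4:**
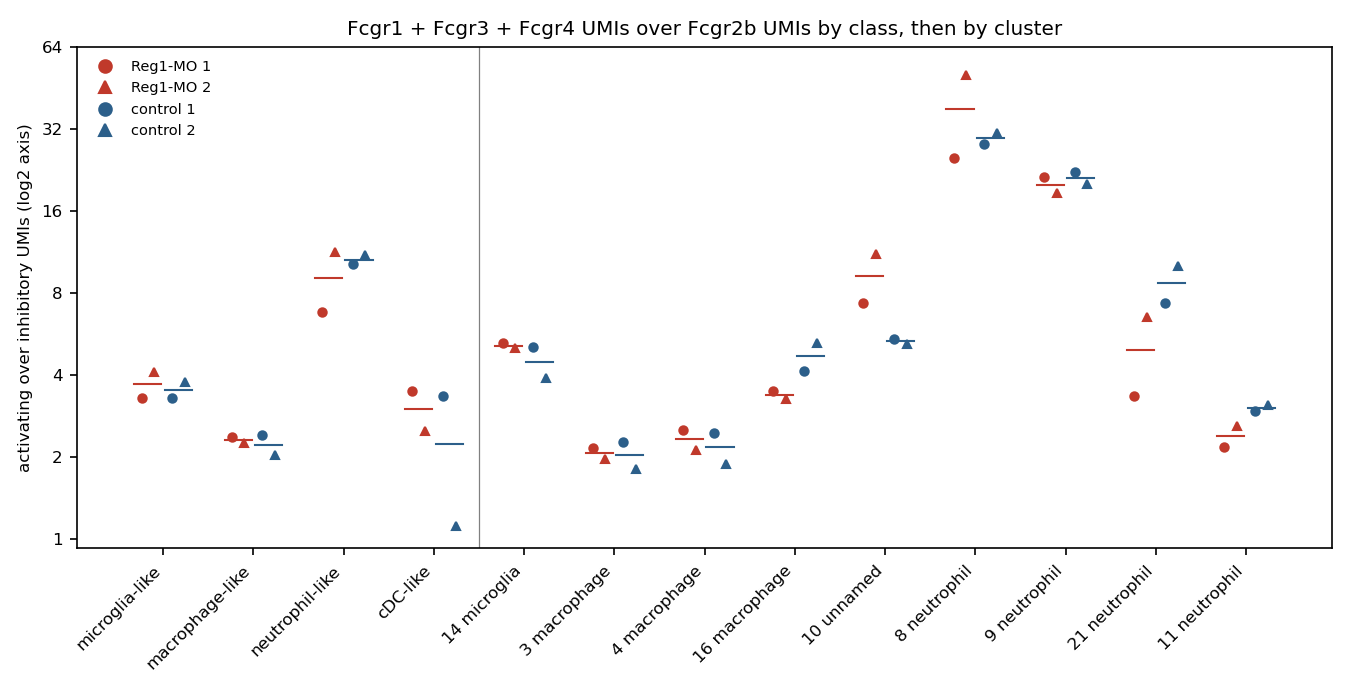
Summed UMIs of Fcgr1, Fcgr3 and Fcgr4 over UMIs of Fcgr2b (log2 axis) in 4 classes, left of the grey line, and 9 clusters, right of it; 1 point per library, group means as lines, Reg1-MO red and left, control blue and right. Macrophage-like libraries lie between 2.04 and 2.41 in both groups. Neutrophil-like clusters 8 and 9, where Fcgr2b was near its T-like level, lie highest, at 18.6 or above.

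Downstream genes were taken from lists chosen with earlier results of these data known, and are described by counts beside the median of all genes. In macrophage-like cells 11 of 18 genes of activating signalling, which carry the signal from the ITAM, were above 0 (median log2 fold change 0.06, against -0.01 over all genes), as were 4 of 10 genes of inhibitory signalling (median -0.08). None was called by edgeR. Lyn, the kinase that phosphorylates both ITAM and ITIM, had 975 and 1110.1 CPM (Reg1-MO) and 1080.4 and 958 CPM (control), and Inpp5d, which encodes SHIP-1, 327 and 333 CPM (Reg1-MO) and 368 and 365 CPM (control), -0.11 ± 0.12 on the log2 scale (adjusted p = 0.622). In microglia-like cells 7 of 18 and 3 of 10 genes of these lists were above 0 (medians -0.05 and -0.08), and Inpp5d had 592 and 707 CPM (Reg1-MO) and 678 and 1207 CPM (control).

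In the Vcan-led cluster 16 some genes of these lists did pass edgeR's test, where 6.56% of all genes were called. Of the activating signalling genes, the adaptor gene Lat2 rose with 61.0 and 62.7 CPM (Reg1-MO) and 31.1 and 30.3 CPM (control), 0.98 ± 0.15 (adjusted p = 0.0054). Lcp2 (SLP-76) rose by 0.48, and the exchange factor gene Vav3 fell by 0.52. Of 10 inhibitory signalling genes 1 fell, the ubiquitin ligase gene Cbl, a share near that of all genes. Among 11 genes for other partners of the FcRγ or DAP12 chains, Cd300lf and Clec4d fell by 0.85 and 0.76. B2m, the partner of FcRn and 1 of 2 genes tested among other immunoglobulin receptors, rose with 1470.3 and 1583 CPM (Reg1-MO) and 1151 and 898 CPM (control), 0.55 ± 0.11 (adjusted p = 0.019).

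Genes of the interferon-γ response, the cytokine known to induce Fcgr1, lay above 0 in 12 of 12 cases in macrophage-like (median 1.34), microglia-like (0.54) and neutrophil-like cells (1.68). In cDC-like cells 11 of 11 did (1.30), and edgeR called none in these classes. Higher without overlap were 11 of 12 in macrophage-like (23.7% of all genes) and 9 of 12 in neutrophil-like cells (14.1%). In cDC-like cells 10 of 11 were (21.6%), but in microglia-like cells only 2 of 12 (18.2%). The median in microglia-like cluster 14 was 0.28, with 1 of 12 below 0. In macrophage-like clusters 3 and 4 the medians were 0.69 and 0.92, with all 12 above 0. Higher without overlap there were 6 of 12 (20.8% of all genes) and 4 of 12 (18.8%). The part of the mix of clusters in the macrophage-like median was not tested. Fcgr1 had smaller changes than the class medians in macrophage-like cells (0.83) and like or larger ones in microglia-like (0.57), neutrophil-like (1.73) and cDC-like cells (1.53). In cluster 16 Socs1 and Ciita, 2 of the 11 genes of the interferon-γ list tested, rose and were called, where 6.56% of all genes were called. Another gene of the list lay below 0 there, at -0.86. In NK/ILC1-like cells Cxcl10 rose by 2.62, with 64.9 and 63.0 CPM (Reg1-MO) and 13.8 and 6.26 CPM (control). Ncf4, an oxidase subunit gene of the phagocytic cup and oxidase list, also rose in NK/ILC1-like cells, by 1.21, and was the 1 of 12 genes of that list called there, as Cxcl10 was the 1 of 9 of its list, where 1.11% of all genes were called. Immunoglobulin and plasma cell transcripts were followed as well. With all cells summed, 2 of 8 such genes tested were above 0 and 6 below (median log2 fold change -1.09, lowest -5.46, against a median of -0.01 over all genes), and none was called by edgeR. Igkc, the kappa light chain gene, had 24.9 and 38.2 CPM (Reg1-MO) and 175 and 64.7 CPM (control) there, -2.02 ± 0.52 (adjusted p = 0.220). B/plasma cell-like cells made up 0.532% and 0.586% of the cells (Reg1-MO) and 1.13% and 1.24% (control). The sum over all cells thus mixes class size and level. Ighm, which encodes the heavy chain of IgM and not of IgG, rose in cluster 16, with 138 and 153 CPM (Reg1-MO) and 54.4 and 43.1 CPM (control), 1.56 ± 0.14 (adjusted p = 0.00076 by edgeR). It rose in neutrophil-like cluster 8 too, with 81.4 and 66.0 CPM (Reg1-MO) and 16.6 and 23.7 CPM (control), 1.93 ± 0.25 (adjusted p = 0.0098), and it was not called in macrophage-like cells, at 17.2 and 34.6 CPM (Reg1-MO) and 13.7 and 11.6 CPM (control).

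Over the 36 profiles of a class in a library, the genes most like each member were listed by Pearson correlation of log2(CPM + 1) among 6845 genes; profiles of 1 library share its depth, and those of 1 class its cells, so no p is given. Fcgr1 was most like Ifi204 (r = 0.943), Atf3 and Ly6i, and Fcgr2b most like C3ar1 (0.941), Sash1 and Csf1r. Fcgr3 was most like Itgam (0.933), Cebpb and Lrmda, and Fcgr4 most like Tlr2 (0.967), Cd14 and Tgm2. Fcer1g was most like Rnf130 (0.956), Tyrobp and Gab2, and Fcgrt most like Arl8b (0.916), Cyp27a1 and Slc12a9. Among the members themselves Fcgr3 and Fcgr4 were closest (0.876), Fcgr1 and Fcgr2b had 0.850, and Fcgrt and Fcgr3 had 0.011.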

How the data were processed

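Sorted spinal cord cells were profiled with the 10x Genomics 3′ v3 kit, per the labels' protocols. The authors deposited raw UMI counts per gene and barcode, for which the file headers name Cell Ranger 5.0.1; mm10 and Seurat 4.0 are named in the submitters' processing notes. How cells were called is not stated there.

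Cells under 500 UMIs or 200 genes, or above 10% mitochondrial UMIs, were dropped. Doublets were scored with Scrublet, and the highest scores were removed at 0.8% per 1000 barcodes, because the automatic threshold marked 421 and 1 cells in the Reg1-MO libraries and 251 and 0 in the controls. Clustering used 3000 variable genes, 40 components, 15 neighbours and Leiden resolution 1 (scanpy 1.11.5, igraph 0.11.9). A cluster was named where its marker score was at least 0.9 and led the next by 0.35, thresholds set after the clusters were seen; 3256 cells stayed unnamed. Names here may therefore differ from those of the study.

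For each class the counts of a library were added up, and libraries were the replicates, for classes with at least 50 cells in every library. Genes passing filterByExpr (minimum count 10) were TMM-normalised; edgeR 4.0.16 gave quasi-likelihood tests, with Benjamini-Hochberg adjustment over all genes tested; the test was checked on simulated counts. DESeq2 1.42.0 was an alternative. Intervals for shares (Wilson, 95%) and counts cover counting error only.

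The members and lists were chosen with earlier results of these data known. Genes named are the members, of each list the called genes with the smallest p (at most 4) or else the 2 of highest mean, the 3 genes most like each member, and markers; leading genes of clusters were named after they were seen. Not every gene this rule gives is printed. A result of the activating signalling list is not reported here.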

Additional observations from a re-analysis of the deposited data

Results flagged for a closer look

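For several members both Reg1-MO libraries lay above both controls in 1 group of cells and below both in another. No member passed edgeR's test in any of these groups, none of the differences was itself tested, and between 13.3% and 28.5% of all genes tested lay apart without overlap in the direction of the member in these groups. For Fcgr3 the log2 fold change in NK/ILC1-like cells exceeded that in microglia-like cells by 0.87 and that in the Vcan-led cluster 16 by 0.84. It was only -0.10 in microglia-like cells and -0.08 in cluster 16. The NK/ILC1-like value rests on 103 and 33 Fcgr3 UMIs (Reg1-MO) and 22 and 34 (control). For Fcgr4 the log2 fold change was higher by 0.72 in neutrophil-like cells and by 0.90 in neutrophil-like cluster 9 than in cluster 16. For Fcgrt it exceeded the change in microglia-like cells by 0.91 in T-like cells and by 0.81 in cluster 16. T-like cells had only 2.71 to 6.40 CPM of Fcgrt. In microglia-like cells Reg1-MO 1 and control 1 were nearly equal, at 53.6 and 53.9 CPM.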

How the results depend on the processing

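Of the values compared with their alternatives, 408 kept direction and side of the threshold, 51 changed sign and 6 became significant; of the counts of called genes, 40 stayed within 1.5 times and 32 did not. The cause was not tested. Fcgr1 kept a positive change in all alternatives run in microglia-like, macrophage-like, neutrophil-like and cDC-like cells and in all cells. It passed edgeR's test in neutrophil-like cells with no filter on low counts (1.69, adjusted p = 0.00026) and with the replicate block (1.88, adjusted p = 0.0032). Both fits called many more genes in this class than the main fit, as counted below.

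Leaving out 1 library at a time, with the lone library of a group assumed to vary like the others, gave log2 fold changes in microglia-like cells of -0.23 to 0.35 for Fcgr2b, -0.48 to 0.95 for Fcgr4 and -0.23 to 0.35 for Fcer1g. In macrophage-like cells the range was 0.36 to 1.54 for Fcgr1, -0.059 to 0.34 for Fcgr3, -0.36 to 0.56 for Fcgr4 and -0.76 to 0.17 for Fcgrt. In neutrophil-like cells it was 1.16 to 2.60 for Fcgr1 and -0.087 to 0.23 for Fcgr3. In cDC-like cells it was -0.23 to 0.97 for Fcgr2b, -0.045 to 0.90 for Fcgr3, 0.0044 to 1.62 for Fcgr4 (the highest without control 1) and -0.35 to 0.074 for Fcgrt. In NK/ILC1-like cells it was -0.92 to 0.21 for Fcgr2b. In all cells it was -0.052 to 0.45 for Fcgr2b, -0.042 to 0.26 for Fcgr3, -0.34 to 0.75 for Fcgr4 and -0.10 to 0.31 for Fcer1g. The macrophage-like minus microglia-like interaction was -0.041 to 0.42 for Fcgr2b, -0.41 to 0.16 for Fcgr4, -0.10 to 0.32 for Fcer1g and -0.41 to 0.29 for Fcgrt. The log2 difference of the activating to inhibitory ratio was -0.094 to 0.21 in microglia-like, -0.059 to 0.18 in macrophage-like, -0.64 to 0.092 in neutrophil-like and -0.19 to 1.40 in cDC-like cells. Genes called numbered 0 to 2071 in macrophage-like, 89 to 586 in neutrophil-like, 0 to 525 in cDC-like and 34 to 123 in NK/ILC1-like cells, and 0 to 16 in all cells.

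With doublets removed at the doubled rate, Fcgr2b in microglia-like cells was -0.056. At Leiden resolution 2, cDC-like cells gave -0.11 for Fcgr2b, -0.15 for Fcgr3 and -0.060 for Fcgr4. In single clusters, Fcgr2b was -0.016 in cluster 14 and -0.30 in cluster 8; Fcgr4 was -0.16 in cluster 3, -0.19 in cluster 4, -0.47 in cluster 16 and -0.0064 in cluster 8; Fcgr3 was -0.078 and Fcgrt 0.55 in cluster 16. The log2 difference of the ratio was -0.46 in cluster 16 and 0.26 in cluster 8, and with Fcgr3 and Fcgr4 alone over Fcgr2b it was -0.10 in microglia-like and -0.12 in macrophage-like cells.

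With DESeq2, 1029 genes were called in all cells, 560 in macrophage-like, 137 in neutrophil-like, 84 in cDC-like, 24 in NK/ILC1-like and 5 in microglia-like cells. Without a filter on low counts, edgeR called 1803 in macrophage-like, 529 in neutrophil-like, 667 in cDC-like and 160 in NK/ILC1-like cells and 171 in all cells. Resolution 2 gave 51 in neutrophil-like and 4 in cDC-like cells, the stricter cell filter 1 in all cells, and single clusters 7 (cluster 4), 629 (cluster 16), 89 (cluster 9) and 129 (cluster 21). The replicate block gave 302 in neutrophil-like and 13 in cDC-like cells. Same-numbered libraries had deviations correlated at 0.344 in microglia-like, 0.280 in all cells and -0.07 to 0.05 in the other 5 classes; with 2 pairs this does not pair them, and the numbers are only names. At this depth Fcgrt in neutrophil-like and Fcgr1, Fcgr4 and Fcgrt in NK/ILC1-like cells did not pass the filter on low counts and were not tested.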

Other observations

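The following values were picked out after they were seen. Within T-like cells, cluster 6, led by Csf2 and Tnfsf11, had 24.2 and 18.7 CPM of Fcgr2b in the Reg1-MO libraries and 34.9 and 17.6 CPM in the controls, while cluster 25, led by Foxp3 and Ikzf2, had 9.76 and 5.55 CPM (Reg1-MO) and 7.25 and 1.61 CPM (control). Every library was higher in cluster 6. Fcer1g did not show that order, at 52.4 and 34.4 CPM (Reg1-MO) and 39.0 and 21.02 CPM (control) in cluster 6 and 61.9 and 32.6 CPM (Reg1-MO) and 27.2 and 25.7 CPM (control) in cluster 25.

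Fcrls, an Fc receptor-like gene known as a microglia marker in mice, had 55.4 and 359.9 CPM in microglia-like cells of the Reg1-MO libraries and 55.4 and 61.1 CPM in those of the controls, so that Reg1-MO 2 alone stood high.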
